A study of Mus musculus with 32 samples.

Results

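The early kidney response to cisplatin was described across pathways in wild type C57BL/6 mice 24 h after the drug, against wild type C57BL/6 mice given saline. The comparison took every array titled for wild type kidney at 24 h (4 arrays) and at 0 h (4 arrays), 8 of the 32 arrays of the series. The treated mice had received 1 injection of 20 mg/kg cisplatin and the 0 h mice saline. All were males aged 12 to 16 weeks, and each array held RNA of the whole kidney of a different animal. The rest of the series holds wild type kidneys at 48 and 72 h and the same 4 groups of miR-155-/- mice, which lack a microRNA of immune and stressed cells. The wild type and miR-155-/- mice came from different suppliers.

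Cisplatin binds DNA and joins neighbouring bases or opposite strands, which blocks replication and transcription. Cells of the proximal tubule take the drug up through organic cation and copper transporters. The lesions are removed by nucleotide excision repair or bypassed by specialised polymerases, and they set off the p53 pathway, stress kinases and inflammatory signalling.

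Levels are log2 processed signals minus the 75th percentile of the same array, so that 0 is the level of a fairly bright probe and each unit is a factor of 2. Differences are treated minus saline, a ± after one is the standard error of the fit, and a gene rose or fell when its adjusted p from limma was under 0.05. Of 23737 genes and transcripts tested 9178 were called (38.7%), 4994 as higher (21%) and 4184 as lower (17.6%). Among the 16451 tested genes with a symbol, to which all list members belong, 21.3% rose and 20.9% fell. A list needs to be read against those shares. Rises of at least 2-fold numbered 1554 (6.55%) and falls of at least 2-fold 1670 (7.04%). The values of the 4 treated and 4 saline animals did not overlap for 46.4% of all genes. Most list members named below were picked for large called differences, so that lack of overlap in them is not separate support. The median difference over all genes was 0.07. Arrays of a group correlated at 0.99 to 0.995 in treated mice and at 0.987 to 0.995 in saline mice over all genes. One slide, slide 6, held both groups, with treated replicate 2 and saline replicate 1, and there 99.8% of the called genes kept their sign, although these arrays are part of the fit. The arrays were read on 2 days, 3 treated and 1 saline array on the first and 1 treated and 3 saline arrays on the second.

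The kidney marker Kap, an androgen-driven proximal tubule transcript, was well above background on all 8 arrays (8.17, 8.19, 8.05 and 7.99 in treated mice, against 8.43, 8.08, 8.24 and 8.16 in saline mice). Umod, the main urinary protein of the thick ascending limb, and Nphs1, the slit diaphragm protein of podocytes, were so too. As a check of the treatment, Cdkn1a, the p53-induced inhibitor of the cell cycle, stood at 3.12, 3.62, 2.94 and 3.43 in treated mice, against -2.0, -1.93, -1.75 and -1.46 in saline mice. Havcr1, the injury protein Kim-1, stood at 1.6, 1.69, 0.58 and 1.71 in treated mice, against -3.81, -2.81, -3.51 and -2.12 in saline mice. All 4 treated animals lay far above all saline animals for both genes, and for Havcr1 treated replicate 3 was the lowest of the treated animals.

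**Figure D1:**
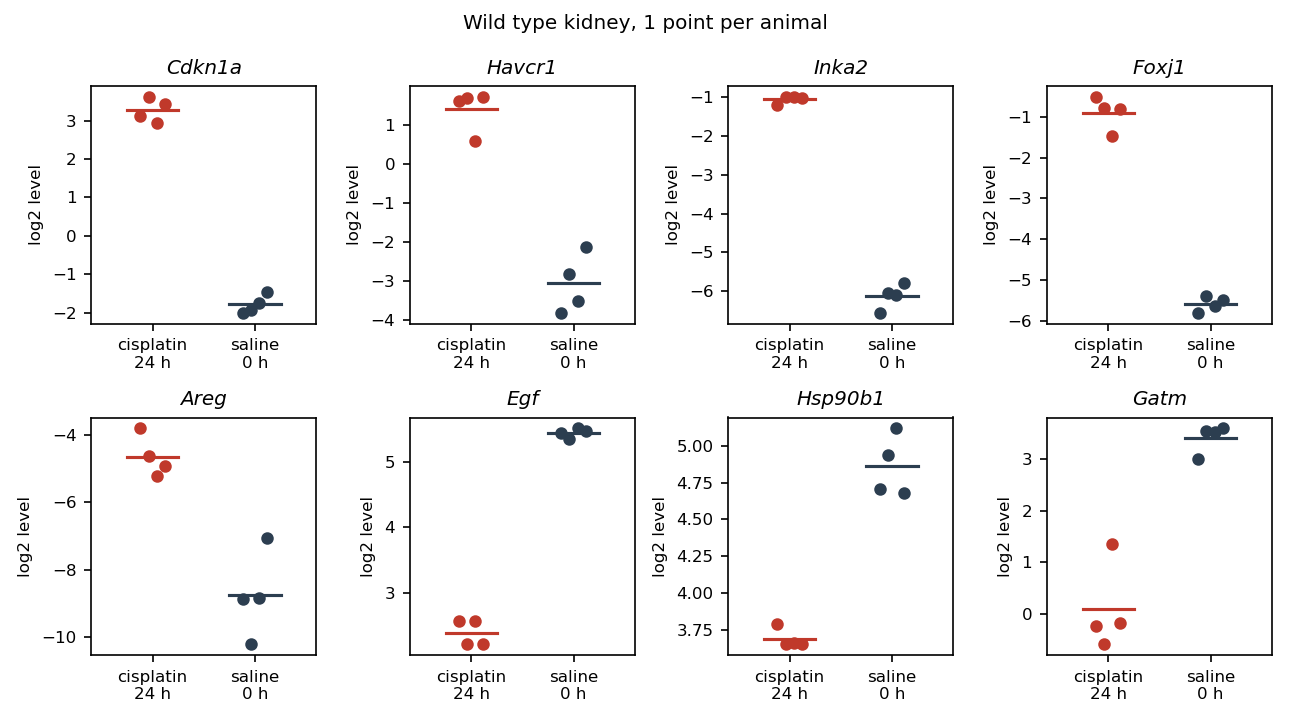
Log2 level (array signal minus the array's 75th percentile) of 8 genes in each animal, with the 4 cisplatin animals at 24 h on the left and the 4 saline animals on the right of each panel; the line is the group mean. Treated and saline animals do not overlap for any of the 8, and Egf, Hsp90b1 and Gatm are the ones lower after cisplatin.

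Inka2, Gtse1 and Psrc1 were among the 15 named genes with the largest rises. Inka2, an inhibitor of the kinase Pak4, stood at -1.21, -1.0, -1.0 and -1.04 in treated mice, against -6.55, -6.05, -6.09 and -5.78 in saline mice, a difference of 5.06 ± 0.15 (33.3-fold, adjusted p = 5.15e-20). Gtse1, a microtubule-binding protein that holds p53 in check, stood 30.9-fold higher (4.95 ± 0.29, adjusted p = 3.87e-13). Psrc1, a spindle protein, was 26.4-fold higher (4.72 ± 0.27). In each case the 4 treated animals were close together. They also lay far from the saline animals, but only genes without overlap between the groups were eligible for these 15.

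Foxj1, the transcription factor that drives formation of motile cilia, stood at -0.51, -0.79, -1.47 and -0.81 in treated mice, against -5.8, -5.4, -5.63 and -5.49 in saline mice, a 25.7-fold rise (4.68 ± 0.5, adjusted p = 2.62e-08). Ms4a10, a membrane protein of the Ms4a family, rose by 5.01 ± 0.56, with 3 of 4 saline arrays well above background. Krt12, a keratin of the cornea, was well above background on 0 of 4 saline arrays and was at least 7.16-fold higher after cisplatin (adjusted p = 0.000583). Treated replicate 3, at -7.06, was the lowest of the treated animals for Krt12, the other 3 lying between -4.73 and -3.62. Krt12, Dusp5, Areg and Brca1 were well above background on at most 1 saline array and entered the tests through groups where they are high, so that their p-values are for differences that the filter favoured.

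Among the largest falls were genes that span very long stretches of genome. Plcb1, a phospholipase that signals downstream of G protein-coupled receptors, stood at -3.47, -3.39, -3.65 and -3.59 in treated mice, against 0.98, 1.0, 1.04 and 0.93 in saline mice (-4.51 ± 0.3, adjusted p = 4.14e-12). Slc25a21, a mitochondrial carrier of oxodicarboxylates, differed by -4.43 ± 0.37, and Rbfox1, a splicing factor, by -4.33 ± 0.44. Their genes are 689, 485 and 1530 kb long in the RefSeq annotation. The treated and saline values of all 3 lay far apart, but the largest falls were also picked among genes without overlap. Pappa2, a protease that cleaves IGF-binding proteins, fell by 4.55 ± 0.63, with 2 of 4 treated arrays well above background. Pappa2 entered the tests through groups other than the treated one, so that the filter favoured this fall. Under the normexp background correction it was not called.

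Differences also followed gene length. Among 384 tested genes over 300 kb 64.1% fell and 1.3% rose, with a median difference of -1.34. The 1545 genes of 100 to 300 kb had a median of -0.61, with 53% falling. At 30 to 100 kb the median was -0.09, at 10 to 30 kb 0.1 and under 10 kb 0.18, and in the shortest class 27.3% rose against 11% that fell. Each treated animal showed this order of the medians. For genes over 300 kb the median was -1.31, -1.56, -1.25 and -1.19 in the 4 treated animals, against 0.03, 0, -0.04 and -0.02 in the 4 saline animals.

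**Figure D2:**
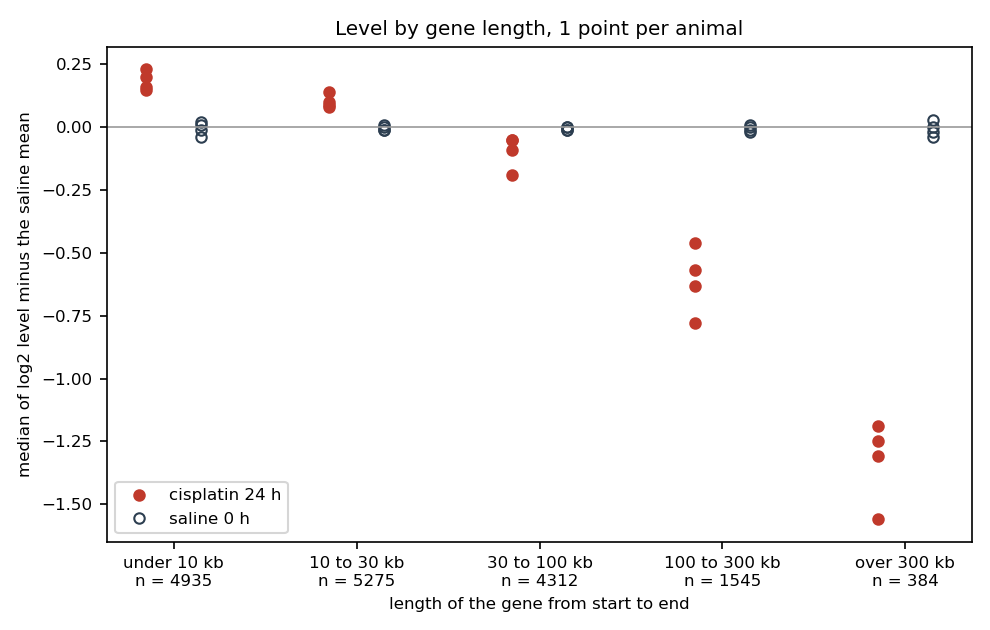
Median over genes of the log2 level minus the saline mean, by length of the gene from start to end, 1 point per animal, for cisplatin at 24 h (filled, left) and saline at 0 h (open, right). The saline animals stay within 0.04 of 0, while the treated animals lie above 0 for genes under 30 kb and between -1.56 and -1.19 for genes over 300 kb.

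As a single number per animal, the slope on gene length was taken of the log2 level minus the saline mean of the same genotype. It was -0.472, -0.571, -0.4 and -0.547 log2 per 10-fold length in the treated mice, against 0.0052, -0.0794, 0.0518 and 0.0223 in the saline mice. The groups did not overlap, and the difference of -0.497 had a two-sided exact permutation p of 0.0286, the smallest that 4 against 4 animals allow. In miR-155-/- mice, which share no array with this comparison, the slopes at 24 h were -0.436, -0.421, -0.831 and -0.657, and their difference from miR-155-/- saline mice was -0.586 (exact permutation p = 0.0286). Slopes of wild type mice lay between -0.354 and -0.17 at 48 h and between -0.247 and -0.163 at 72 h. Saline slopes average 0 by construction, because the saline mean is subtracted. Among the times after cisplatin, the wild type slopes were farthest from 0 at 24 h. Because length moved with so many genes, many of the lists that follow are also given for their members under 30 kb. Over all genes under 30 kb 26.6% rose, 12.7% fell and the median was 0.14. The part of gene length in the change of any one list was not tested.

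**Figure D3:**
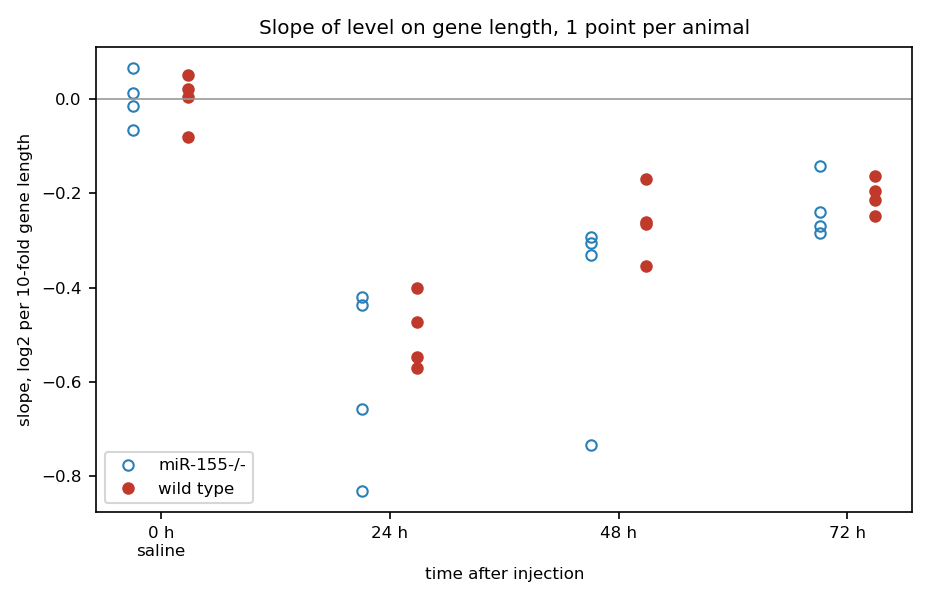
Slope of the log2 level (minus the saline mean of the same genotype) on the log10 of gene length, 1 point per animal, for miR-155-/- (open) and wild type (filled) mice by time after injection. Saline animals lie around 0; every animal given cisplatin lies below 0, and the wild type animals at 24 h lie between -0.571 and -0.4.

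Of 20 genes of nucleotide excision repair and translesion synthesis 12 rose and 0 fell (median 0.32, with 7 rises under the normexp background correction). Polk, a polymerase that copies past damaged bases, stood at -0.39, -0.29, -0.57 and -0.52 in treated mice, against -2.11, -2.12, -2.1 and -2.02 in saline mice (1.64 ± 0.14, adjusted p = 6.67e-10). Mad2l2, a subunit of polymerase zeta, stood at 2.55, 2.89, 2.53 and 2.96 in treated mice, against 1.32, 1.33, 1.43 and 1.35 in saline mice (1.37 ± 0.14). Both were far apart between the groups. Rev1, which recruits the bypass polymerases, rose by 1.02 ± 0.11, and Ercc5, the nuclease that cuts 3′ of the lesion, by 1.56 ± 0.22. Rev3l, the catalytic subunit of polymerase zeta, was not called (-0.14), and neither was Xpa (0.09), which verifies the damage.

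In the list of homologous recombination and crosslink repair, 3 of 20 rose and 5 fell (median -0.06, and 0.14 over the 13 members under 30 kb). Under the normexp background correction 0 rose and 2 fell. Fancc and Fancl, of the Fanconi complex that handles crosslinks, fell by 1.5 ± 0.26 and 1.1 ± 0.23, and their genes are 196 and 84.8 kb long. Brca1 rose by 2.21 ± 0.64, but only 1 of 4 saline arrays was well above background. Among 19 checkpoint genes 5 rose and 2 fell (median 0.21, and 0.44 over the 10 under 30 kb). Wee1, the kinase that holds cells out of mitosis, stood at 0.18, 0.44, -0.02 and 0.17 in treated mice, against -1.77, -1.56, -1.88 and -1.32 in saline mice (1.82 ± 0.18, adjusted p = 9.28e-09). Atr, Chek1 and Chek2, the kinases that relay replication stress and breaks, were not called (0.21, 0.07 and 0.1).

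Of 20 replication genes 8 rose and 3 fell (median 0.37, and 0.46 over the 17 under 30 kb). The median was 0.49 and 0.15 within the 2 scan days, and 5 genes rose without saline replicate 3. Cdt1, which loads the helicase at origins, stood at 2.06, 2.76, 1.59 and 2.59 in treated mice, against 0.13, 0.86, 0.4 and 0.5 in saline mice (1.78 ± 0.37). Pola1, the catalytic subunit of the priming polymerase, fell by 2.78 ± 0.2 and its gene is 328 kb long. Of 18 mitosis genes 10 fell and 0 rose (median -0.66, with 2 falls under the normexp background correction), and the saline animals were spread widely, with list medians of -0.39, 0.08, -0.41 and 0.61 around their own mean. Cenpe, a kinetochore motor, stood at -2.24, -2.63, -2.11 and -2.42 in treated mice, against -0.14, -0.36, -0.34 and -0.22 in saline mice (-2.08 ± 0.19). For Cenpe the groups were far apart. Ccnb1, the mitotic cyclin, differed by -0.5 and was not called. Ccnd1, the cyclin that starts G1, fell by 1.09 ± 0.18.

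The inhibitors and subunits of NF-kB, a transcription factor of inflammation held in the cytoplasm by IkB proteins, rose. Of 17 members 14 rose and 1 fell (median 1.18, 1.19 over the 13 under 30 kb, and 1.21 and 1.07 within the 2 scan days). The list medians of the treated animals were 1.09, 1.48, 0.65 and 1.3. Nfkb2, the p100 subunit, stood at 0.94, 1.28, 0.4 and 1.16 in treated mice, against -1.19, -0.89, -0.78 and -0.94 in saline mice (1.89 ± 0.19, adjusted p = 1.01e-08). Tnfaip3, the feedback enzyme A20, stood at 0.56, 0.84, -0.19 and 0.63 in treated mice, against -1.38, -1.05, -0.96 and -1.24 in saline mice (1.62 ± 0.22). Treated replicate 3 was lowest for both, yet above every saline animal. Map3k14, the kinase NIK of the non-canonical branch, rose by 1.47, and Relb and Rela rose by 1.24 and 1.18. Nfkb1 was not called (0.06).

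In the list of MAP kinase feedback phosphatases and Sprouty genes 7 of 17 rose and 1 fell (median 0.59, and 0.88 over the 12 under 30 kb). Dusp8 and Dusp4 rose by 2.4 ± 0.36 and 2.37 ± 0.33. Dusp5, well above background on 0 of 4 saline arrays, was at least 6.36-fold higher (adjusted p = 0.00121). As said for Krt12, the filter favoured this difference. Dusp1 and the Sprouty genes Spry1 and Spry4 were not called (-0.07, 0.04 and 0.02).

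Of 12 genes of the EGF receptor family, its ligands and feedback 2 rose and 4 fell (median 0). Areg, amphiregulin, a ligand of the EGF receptor, stood at -3.8, -4.63, -5.22 and -4.91 in treated mice, against -8.86, -10.21, -8.84 and -7.05 in saline mice, where 1 of 4 arrays was well above background (4.1 ± 0.51, adjusted p = 2.99e-07). Nrg1, neuregulin 1, a ligand of the related ErbB3 and ErbB4 receptors, stood at 1.94, 1.74, 2.21 and 1.78 in treated mice, against -0.02, 0.28, 0.38 and 0.07 in saline mice, a rise of 1.74 ± 0.36. The Nrg1 gene is 1080 kb long. Egf, made in the distal nephron, stood at 2.56, 2.22, 2.56 and 2.21 in treated mice, against 5.45, 5.36, 5.52 and 5.48 in saline mice (-3.07 ± 0.28). For Nrg1 and Egf the groups were well separated. The size of the Areg rise rests on saline signals mostly not well above background, and the filter favoured that rise. The receptor Egfr itself was not called (0.6), and Erbb2 fell by 0.79 ± 0.19.

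Among 18 genes of the IL-6 family and its feedback 3 rose and 3 fell, near the shares over all genes (21% and 17.6%). Clcf1, a cytokine that signals through gp130, rose by 2.49 ± 0.31, Lif by 2.45 ± 0.38 and Stat3 by 1.18 ± 0.21, whereas Lifr and Osmr, receptors, fell by 0.75 ± 0.24 and 0.83 ± 0.29. Il6 was well above background on 0 of 8 arrays, and Socs3 was not called (1.04). Of 15 chemokines 4 rose and 3 fell, also near those shares. Cxcl10, which attracts T cells, rose by 3.34 ± 0.44 and Cxcl16 by 0.72, while Cxcl12, a stromal chemokine, fell by 1.58 ± 0.33. Ccl2 was not called (-1.11).

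Id1 and Id3, inhibitors of differentiation that BMP signals induce, rose by 1.77 ± 0.17 and 1.29 ± 0.2. Their TGF-beta and BMP list of 22 had 5 rises and 3 falls, near the shares over all genes (21% and 17.6%). Tgfb1 was not called (-0.13). Of 14 YAP and TAZ targets 4 rose and 1 fell, with Ajuba, a LIM protein of cell junctions, at 1.0 ± 0.16. In the Notch and Wnt list, with 2 rises and 3 falls among 20, Sfrp1, a secreted Wnt antagonist, stood at -0.52, -1.12, -1.37 and -1.96 in treated mice, against 0.73, 0.85, 0.91 and 1.14 in saline mice (-2.15 ± 0.34). Its lowest saline value lay above its highest treated value.

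The IGF axis moved one way, with 6 of 13 members falling and 0 rising (median -0.8, and -0.93 over the 7 under 30 kb). Igfbp1, an IGF-binding protein, stood at -0.99, -0.91, -0.47 and -0.82 in treated mice, against 0.92, 1.43, 1.71 and 2.29 in saline mice (-2.39 ± 0.4). The receptors Igf1r and Insr differed by -1.92 ± 0.48 and -0.97 ± 0.24, both called lower. Treated and saline animals were apart for each of these 3 genes. Igf1 was not called (-0.8).

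Of 22 genes of the renin-angiotensin system and other vasoactive pathways 10 fell and 1 rose (median -0.25, and 0.09 over the 12 under 30 kb). Ace, the angiotensin-converting enzyme, stood at -0.73, -1.12, -1.03 and -1.14 in treated mice, against 0.33, 0.17, 0.16 and -0.07 in saline mice (-1.15 ± 0.19). Kng1, the kininogen, and Klk1, the kallikrein that cleaves it, fell by 1.2 ± 0.16 and 1.07 ± 0.23. Ace, Kng1 and Klk1 showed no overlap between the groups. Ren1, renin, was not called (0.45), and Edn1, endothelin 1, rose by 0.59 ± 0.23.

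The circadian clock is a loop in which Arntl and its partners activate Per and Cry genes through E-box motifs, and the products of these genes then block Arntl. Of 19 clock genes 7 rose and 2 fell (median 0.48, and 1.0 over the 9 under 30 kb). In miR-155-/- mice at 24 h 6 rose and 6 fell (median -0.08), against 26.6% and 22.5% of all genes there. The difference between the genotypes was not tested for the list. Per1 stood at 3.87, 3.87, 3.29 and 3.51 in treated mice, against 2.51, 1.66, 1.44 and 2.41 in saline mice (1.63 ± 0.23, adjusted p = 2.67e-06). Arntl stood at -2.35, -2.79, -2.32 and -2.51 in treated mice, against -1.13, -0.81, -0.75 and -1.74 in saline mice (-1.39 ± 0.23). Neither gene overlapped between the groups. Ciart and Cry1 rose by 1.68 ± 0.38 and 1.54 ± 0.37, while Nr1d1 and Dbp, strongly rhythmic outputs, were not called (-0.31 and 0.09). The sources used here do not give the hour of day of sampling, so that drug and hour cannot be told apart for these genes.

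The promoters that RefSeq gives for the clock genes (GRCm38.p6, 250 bases before to 50 after each start) were searched for the E-box, CACGTG, which reads the same on both strands. It was present in 5 of the 16 clock genes with a promoter in the table, against 8.09% of 27025 genes. It was found in 4 genes that rose, Bhlhe41, Ciart, Cry1 and Per1, and in Tef, which was not called. The part of the E-box in these rises was not tested. The stretches below show the E-box of Per1 and Cry1 in capitals, each read 5′ to 3′, at chr11:69098773-69098798 on the plus strand and chr10:85185099-85185124 on the minus strand.
Per1: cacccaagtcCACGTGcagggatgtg
Cry1: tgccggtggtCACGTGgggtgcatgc

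Glucocorticoid-responsive genes gave a mixed picture, with 5 rises and 1 fall among 14. Zbtb16, a zinc finger repressor, stood at 0.57, 0.46, 0.84 and 0.06 in treated mice, against -2.7, -2.27, -1.76 and -1.9 in saline mice (2.64 ± 0.34). Pdk4, which shuts pyruvate dehydrogenase down, rose by 2.65 ± 0.46. Both were clearly separated. Fkbp5 and Tsc22d3, common markers of glucocorticoid action, were not called (-0.17 and 0.49).

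**Figure D4:**
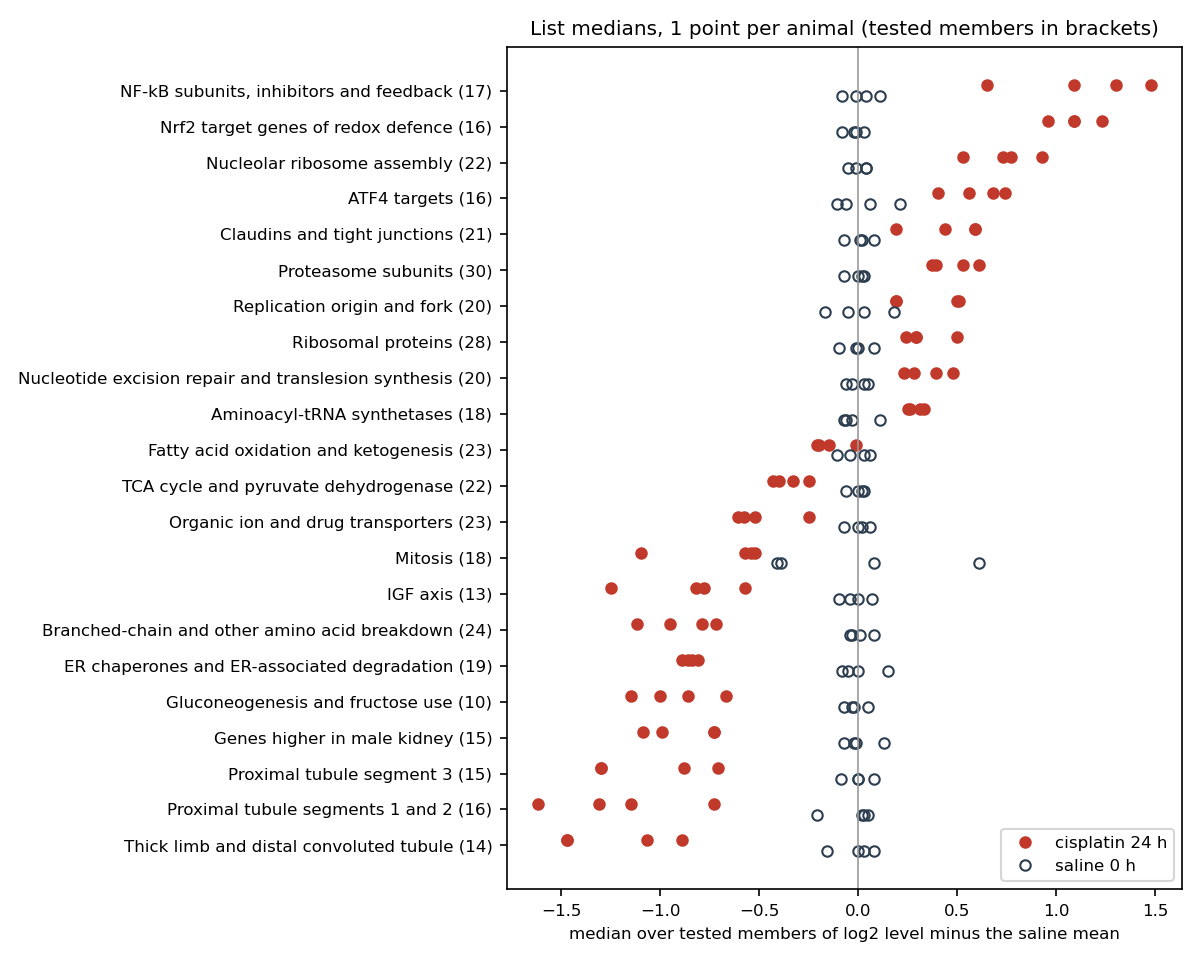
Median over the tested members of 22 gene lists of the log2 level minus the saline mean, 1 point per animal, for cisplatin at 24 h (filled) and saline at 0 h (open). Saline animals lie near 0 except for mitosis genes (-0.41 to 0.61), and treated animals lie between -1.47 and -0.89 for thick limb genes and between 0.65 and 1.48 for NF-kB genes.

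Protein quality control changed by compartment. In the endoplasmic reticulum, where secreted and membrane proteins fold, 16 of 19 chaperone and degradation genes fell and 1 rose (median -0.91, and the same over the 15 under 30 kb). The treated animals were close together, with list medians of -0.89, -0.86, -0.81 and -0.84. Hsp90b1, the chaperone GRP94, stood at 3.79, 3.65, 3.66 and 3.65 in treated mice, against 4.71, 4.94, 5.12 and 4.68 in saline mice (-1.17 ± 0.12, adjusted p = 9.01e-09). Pdia6, a disulfide isomerase, stood at 4.01, 4.14, 4.13 and 4.07 in treated mice, against 5.07, 5.17, 5.24 and 5.06 in saline mice (-1.05 ± 0.1). Both groups were narrow and apart from each other. Hspa5, the chaperone BiP, fell by 1.0. Dnajb9, a cochaperone of BiP, was the one member that rose (0.76 ± 0.27). Within scan days the list median was -0.75 and -0.9.

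Many of these genes share the ER stress element, the motif through which ATF6 and XBP1 activate chaperones. The letters CCAAT, followed after 9 bases of any kind by CCACG, were looked for on both strands of the same RefSeq promoters and were present in 8 of the 17 list members that have one, against 0.137% of 27025 genes. Of those 8 genes 7 fell and Syvn1 was not called (0), and in the whole list 16 of 19 fell. The part of the motif in these falls was not tested. The stretches of 4 of them are shown because they are the sequence feature these chaperones have in common, with the fixed letters in capitals and each read 5′ to 3′ in the direction of the motif. They lie at chr2:34772020-34772048 (Hspa5, plus strand), chr10:86705633-86705661 (Hsp90b1, minus strand), chr8:84847070-84847098 (Calr, plus strand, with the gene on the minus strand) and chr12:17266486-17266514 (Pdia6, plus strand) in GRCm38.p6.
Hspa5: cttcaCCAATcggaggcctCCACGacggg
Hsp90b1: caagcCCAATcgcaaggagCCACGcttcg
Calr: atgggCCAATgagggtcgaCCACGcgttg
Pdia6: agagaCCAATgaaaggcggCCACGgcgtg

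Calr, calreticulin, fell by 0.94. ATF4 targets, the other arm of the ER and amino acid stress response, went mostly the other way, with 8 of 16 rising and 2 falling (median 0.64). Ddit3, the transcription factor CHOP, stood at 0.54, 0.78, -0.22 and 0.58 in treated mice, against -1.35, -1.56, -1.39 and -1.32 in saline mice (1.82 ± 0.22, adjusted p = 2.51e-07). Trib3, a pseudokinase induced by CHOP, and Ppp1r15a, which directs removal of phosphate from eIF2 alpha, rose by 1.53 ± 0.37 and 1.43. Asns, asparagine synthetase, was not called (0.46). Of 18 aminoacyl-tRNA synthetases 8 rose and 0 fell (median 0.27), led by Rars at 0.91 ± 0.25 and Sars at 0.71 ± 0.1.

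Proteasome subunits rose by little and nearly all together, 25 of 30 with 0 falls (median 0.49, range 0.07 to 0.79). Psmd11, a subunit of the lid, stood at 3.1, 3.33, 2.99 and 3.33 in treated mice, against 2.4, 2.13, 2.69 and 2.4 in saline mice (0.79 ± 0.16, adjusted p = 0.000219). Psmd4, a ubiquitin receptor, differed by 0.7 ± 0.16. For both, the highest saline animal lay below the lowest treated animal. The list medians in treated animals were 0.39, 0.61, 0.37 and 0.53.

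Of 16 heat shock proteins 4 rose and 2 fell, close to the share of calls over all genes. Dnajb4 and Hspb1, a cochaperone and the small chaperone Hsp27, rose by 1.96 ± 0.22 and 1.31 ± 0.36, whereas Hspd1 and Hspe1, the mitochondrial chaperonin pair, fell by 0.49 ± 0.09 and 0.35 ± 0.08. Hspa8 and Hsp90aa1 were not called (0.03 and 0.12). In autophagy, with 4 rises and 6 falls among 23, Sqstm1, the cargo receptor p62, stood at 4.03, 4.12, 3.95 and 4.17 in treated mice, against 2.52, 2.57, 2.79 and 2.6 in saline mice (1.45 ± 0.1). Atg7, the E1-like enzyme of autophagosome formation, stood at -1.44, -1.6, -1.51 and -1.41 in treated mice, against 0.73, 0.63, 0.65 and 0.7 in saline mice (-2.17 ± 0.11), and its gene is 217 kb long. The 2 genes are clearly separated in opposite directions. Of the 13 autophagy members under 30 kb 3 rose and 0 fell, against 26.6% and 12.7% of all genes under 30 kb.

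Redox and detoxification genes under Nrf2, a transcription factor activated by electrophiles, rose in 13 of 16 cases with 1 fall (median 1.09). Nqo1, a quinone reductase, stood at 3.52, 3.48, 3.26 and 3.41 in treated mice, against 1.25, 1.02, 1.06 and 1.46 in saline mice (2.22 ± 0.14, adjusted p = 2.01e-12). The pentose phosphate enzymes G6pdx and Pgd rose by 1.52 and 1.71 ± 0.18. Slc7a11, the cystine importer, was well above background on 0 of 8 arrays, and Me1, malic enzyme, fell by 0.87 ± 0.11.

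Genes that build ribosomes rose. Of 22 nucleolar assembly factors 17 rose and 0 fell (median 0.77, and 0.67 and 0.75 within scan days). Ddx21, a nucleolar helicase, stood at 1.38, 1.69, 1.07 and 1.56 in treated mice, against -0.18, -0.07, -0.04 and -0.22 in saline mice (1.55 ± 0.26, adjusted p = 3.34e-05). Nop56, a core protein of box C/D snoRNPs, rose by 1.12 ± 0.22, and Myc, which drives many of these genes, stood at -0.76, -0.42, -1.2 and -0.51 in treated mice, against -3.68, -3.28, -3.07 and -3.79 in saline mice (2.73 ± 0.3). The groups did not overlap for Ddx21, Nop56 or Myc. Polr1a, the largest subunit of RNA polymerase I, was not called (0.01).

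Ribosomal proteins rose by less, 14 of 28 with 1 fall (median 0.33, and 6 rises under the normexp background correction), the largest being Rps19 at 0.85 ± 0.19. Among 22 subunits and elongation factors of RNA polymerase II 12 rose and 1 fell (median 0.38). Cdk12, the kinase that keeps transcription of long and DNA repair genes going, rose by 1.32 ± 0.25, with 3 treated values left after outlier spots were removed. Ccnt2, a cyclin of the elongation factor P-TEFb, rose by 1.08 ± 0.27, and Polr2i, a small polymerase subunit, fell by 0.75 ± 0.1. Of 23 splicing factors 10 rose and 2 fell.

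**Figure D5:**
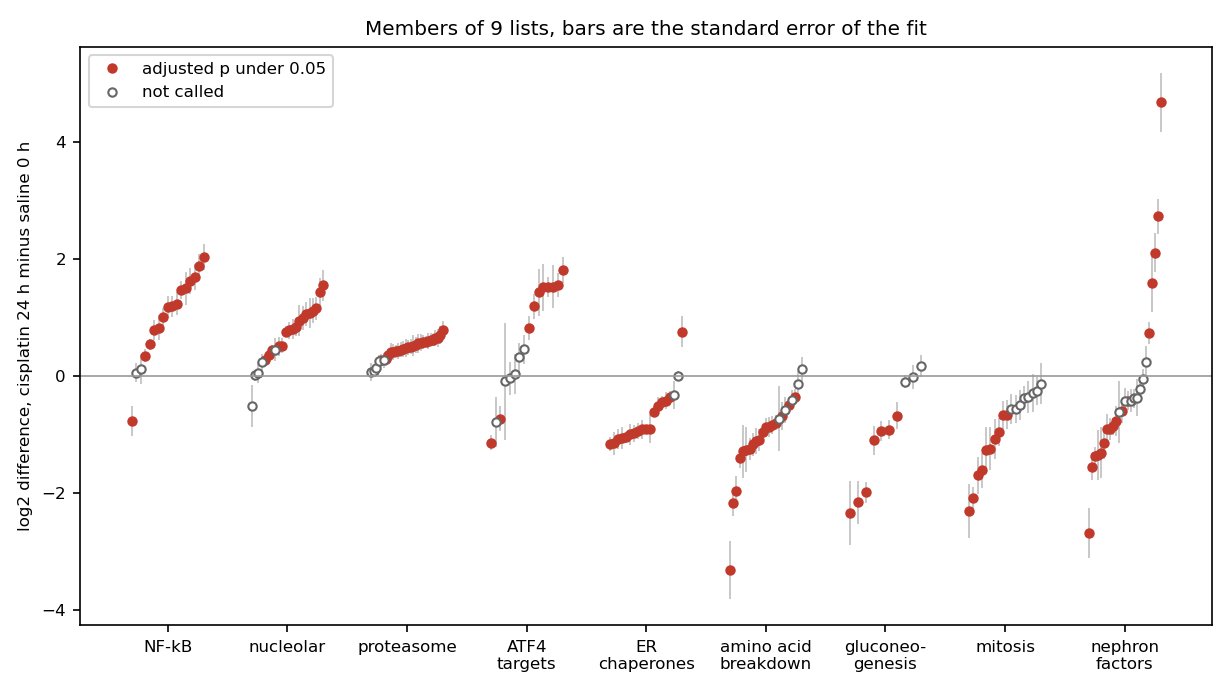
Log2 difference (cisplatin 24 h minus saline 0 h) of each tested member of 9 lists, ordered by size within the list, with the standard error of the fit; filled points had an adjusted p under 0.05. Proteasome subunits lie in a narrow band from 0.07 to 0.79, ER chaperones mostly near -0.91, and nephron transcription factors spread from -2.69 (Esrrg) to 4.68 (Foxj1).

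The metabolic genes that mark the proximal tubule fell. The kidney makes glucose in this segment, and of 10 genes of gluconeogenesis and fructose use 7 fell and 0 rose (median -0.93, and -0.99 and -0.96 within scan days). Pck1, the enzyme that commits carbon to glucose, stood at 4.29, 4.3, 4.72 and 4.0 in treated mice, against 6.28, 6.24, 6.66 and 6.78 in saline mice (-2.16 ± 0.37, adjusted p = 3.98e-05). G6pc, which releases free glucose, stood at 1.72, 1.5, 2.3 and 1.45 in treated mice, against 3.91, 3.63, 4.38 and 4.41 in saline mice (-2.34 ± 0.55). Both were separated by more than 1 log2 unit between the nearest animals.

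In the list of amino acid breakdown 19 of 24 genes fell and 0 rose (median -0.87, and -0.86 over the 12 under 30 kb). The largest fall of the list was that of Gatm, which makes the creatine precursor and is not itself an enzyme of breakdown. Gatm stood at -0.22, -0.58, 1.35 and -0.17 in treated mice, against 2.99, 3.54, 3.52 and 3.59 in saline mice (-3.32 ± 0.49, adjusted p = 4.7e-06). Pcca, of propionyl-CoA carboxylase, and Bckdhb, of the branched-chain dehydrogenase, differed by -2.17 ± 0.22 and -1.97 ± 0.26, both called lower, with genes of 406 and 199 kb. Treated replicate 3 was the highest of the treated animals for Gatm, still below every saline animal.

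Of 22 genes of the TCA cycle and pyruvate dehydrogenase 15 fell and 0 rose, by little (median -0.35), with Idh2 at -1.27 ± 0.2. Fatty acid oxidation was mixed, 4 of 23 rising and 9 falling (median -0.19). Plin2, the coat protein of lipid droplets, stood at 5.7, 5.87, 5.46 and 5.68 in treated mice, against 2.45, 2.25, 2.45 and 2.68 in saline mice (3.22 ± 0.38, adjusted p = 1.23e-07). Acadm, the medium-chain dehydrogenase, fell by 1.11 ± 0.16. Cpt2 and Ppara were not called (0.3 and -0.23). For Plin2 all 4 treated animals lay far above the saline animals.

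Polyamine genes moved at opposite ends of the pathway, 5 of 13 rising and 3 falling. Arg2, which supplies ornithine, rose by 2.77 ± 0.22, and Smox and Sat1, which break spermine and spermidine down, rose by 2.29 ± 0.33 and 0.99 ± 0.11. Odc1, the first committed enzyme of synthesis, stood at 4.96, 5.31, 5.09 and 5.18 in treated mice, against 6.75, 5.96, 5.92 and 6.44 in saline mice (-1.14 ± 0.2). In iron handling, with 5 rises and 5 falls among 17, Tfrc, the transferrin receptor, fell by 1.35 ± 0.21 and Ireb2, an iron-sensing RNA-binding protein, rose by 1.53 ± 0.25. Of 18 genes of mitochondrial biogenesis and dynamics 7 fell and 0 rose, Ppargc1b by 1.32 ± 0.35, and Ppargc1a was not called (-0.82).

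Markers of the proximal tubule fell. In bulk tissue, fewer cells of a segment and less RNA per cell cannot be told apart. Of 16 markers of proximal segments 1 and 2 and of 15 of segment 3, 12 fell in each and 0 rose (medians -1.13 and -1.03, and -0.82 and -0.56 over the members under 30 kb). Slc13a3, a dicarboxylate transporter, stood at 3.79, 3.77, 3.81 and 3.71 in treated mice, against 5.73, 5.63, 5.74 and 5.73 in saline mice (-1.94 ± 0.21). Slc5a8, a monocarboxylate transporter, fell by 1.99 ± 0.31. Aqp1, the water channel, fell by 0.48.

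Of 23 organic ion and drug transporters 14 fell and 3 rose (median -0.47, and -0.48 over the 4 under 30 kb). Slc22a2, the organic cation transporter OCT2, fell by 0.94, Slc31a1, the copper importer, by 0.75, and Slc47a1, the exporter MATE1, by 0.64. These 3, which carry cisplatin, were picked with their values known. The 3 that rose were efflux pumps. Abcb1b, a P-glycoprotein, stood at -0.14, -0.17, 0.03 and -0.39 in treated mice, against -3.29, -2.5, -2.32 and -1.76 in saline mice (2.3 ± 0.38, adjusted p = 2.01e-05). Abcc2, the pump MRP2, stood at 3.85, 3.87, 3.92 and 4.04 in treated mice, against 2.45, 2.34, 2.52 and 2.48 in saline mice (1.47 ± 0.15). Abcb1a rose by 1.4 ± 0.17 with a gene of 181 kb, and none of the 3 overlapped between the groups. The copper pumps Atp7a and Atp7b were not called (0.29 and -0.19).

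Thick limb and distal convoluted tubule genes fell in 11 of 14 cases with 0 rises (median -1.22, -0.97 over the 6 under 30 kb, and -1.53 and -0.8 within the 2 scan days). Slc12a3, the thiazide-sensitive salt transporter, stood at 0.49, 0.16, 0.12 and -0.12 in treated mice, against 2.33, 2.38, 2.8 and 3.01 in saline mice (-2.47 ± 0.25). Of 15 genes of magnesium handling 10 fell and 1 rose (median -0.57, and -0.33 over the 6 under 30 kb). Trpm6, the distal magnesium channel, stood at -0.62, -1.17, -1.37 and -1.86 in treated mice, against 0.79, 0.71, 1.09 and 1.35 in saline mice (-2.24 ± 0.24, adjusted p = 2.96e-08), and its gene is 162 kb long. Both genes had no overlap. Cldn16 and Cldn19, the paracellular magnesium route of the thick limb, were not called (0.37 and -0.23).

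In the calcium and Klotho list, Kl, the co-receptor of FGF23, fell by 1.59 ± 0.28 and Trpv6, a calcium channel, rose by 1.92 ± 0.36. Of the collecting duct markers 5 of 14 principal cell and 7 of 18 intercalated cell genes fell and 0 rose. The principal cell median was -0.99 and -0.15 within the 2 scan days and the intercalated cell median -0.75 and -0.38. Aqp3 and Aqp2, the water channels of principal cells, fell by 1.35 ± 0.17 and 1.21 ± 0.36. Foxi1, the intercalated cell factor, was not called (-0.2).

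In a list of 25 transcription factors of the nephron, not all of which define its segments, 12 fell and 5 rose (median -0.42, and -0.37 over the 13 under 30 kb). Hnf4a, the master factor of the proximal tubule, fell by 0.91, and Esrrg, a nuclear receptor of mitochondrial genes, by 2.69 ± 0.43 with a gene of 606 kb. Besides Foxj1, the motile cilia factor, and Myc, the risers were Klf6, Sox9 and Sox4, at 2.11 ± 0.33, 1.59 ± 0.5 and 0.74 ± 0.19. Sox9 marks tubule cells that re-enter the cell cycle after injury. Pax2 and Pax8, which remain on in the adult tubule, were not called (-0.05 and -0.23).

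Genes that are higher in male than in female kidney fell in 11 of 15 cases with 0 rises (median -0.97), among them Cyp2e1 by 1.54 ± 0.3 and Acsm3 by 1.3 ± 0.29. Kap, above, was not called (-0.13). Among 29 drug-metabolising enzymes 7 rose and 6 fell, near the shares over all genes. Mgst1, a membrane glutathione transferase, stood at 4.07, 4.14, 4.07 and 4.01 in treated mice, against 2.19, 2.19, 2.4 and 2.36 in saline mice (1.79 ± 0.14). Ugt2b38, a glucuronosyltransferase, fell by 2.04 ± 0.2; the Ugt2b genes are close copies of each other, so that this probe may not be specific.

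Among structural genes, 10 of 21 claudins and tight junction proteins rose and 0 fell (median 0.56). Ocln, occludin, stood at 1.29, 1.74, 1.1 and 1.73 in treated mice, against -0.21, -0.37, -0.23 and -0.37 in saline mice (1.76 ± 0.2, adjusted p = 6.61e-08). Cldn4 and Cldn6 rose by 1.66 ± 0.47 and 1.87 ± 0.28. Cldn2, the proximal tubule claudin, was not called (-0.24). S100a10, an annexin partner, and Tubb6, a tubulin, rose by 1.94 ± 0.19 and 2.83 ± 0.44 in a keratin and cytoskeleton list of 22 with 8 rises and 1 fall, whereas Vim was not called (0.13).

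In the plasminogen and integrin list, with 6 rises and 1 fall among 23, Plaur, the urokinase receptor, rose by 2.41 ± 0.57, and Cd44 was not called (-0.06). Cilium genes fell in 9 of 22 cases and 2 rose (median -0.24). Pkhd1, the gene of recessive polycystic disease, stood at 0.64, 0.13, 0.32 and 0.04 in treated mice, against 2.78, 2.49, 2.73 and 2.65 in saline mice (-2.38 ± 0.26), and its gene is 560 kb long. Only 3 of the cilium genes are under 30 kb, with a median of 0.03.

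Immune genes gave scattered calls. The fibrinogen genes Fga, Fgb and Fgg rose by 2.09 ± 0.57, 1.95 ± 0.61 and 1.72 ± 0.61 in a complement and coagulation list in which 9 of 23 fell and 4 rose (median -0.57, and -0.18 over the 16 under 30 kb). C3 was not called (0.5). Tap1, the peptide transporter of class I presentation, stood at -1.52, -1.18, -1.43 and -1.09 in treated mice, against -2.95, -2.62, -3.29 and -3.16 in saline mice (1.7 ± 0.18). Of the 16 presentation genes 5 rose and 0 fell, and the class II genes H2-Aa and H2-Ab1 were not called (-0.19 and -0.38). In the interleukin-1 family, Il1f6 rose by 2.61 ± 0.63, with 3 of 4 saline arrays well above background, while Il1b and Nlrp3 were not called (-0.8 and -0.64).

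Markers of other cell types moved beside these lists, and their part in the changes was not tested. Of 13 macrophage and dendritic cell markers 3 fell and 1 rose (median -0.7), the list medians being -0.73, -0.68, -0.77 and -0.43 in treated mice, against -0.21, 0.53, -0.05 and -0.22 in saline mice. Of 14 fibroblast and smooth muscle markers 5 fell and 0 rose (median -0.75), with list medians from -1.38 to -0.39 in treated mice, against -0.33 to 0.37 in saline mice. The neutrophil list had 0 calls in 9 genes by limma (0 at an unadjusted p under 0.05) and the adrenal list 0 in 3 (0 at an unadjusted p under 0.05). Against 17.6% of all genes that fell (20.9% of those with a symbol), endothelial markers fell in 3 of 12 cases and podocyte markers in 1 of 10. The podocyte median was 0.44 and -0.72 within the 2 scan days. Lymphocyte markers fell in 1 of 10 cases and the 8 red blood cell markers in 2 (median -1.59, but 0.04 within the second scan day), 1 of these, Slc4a1, also being a gene of intercalated cells. Adipocyte markers had 1 rise and 1 fall among 6.

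Liver-type transcripts differed among the saline animals themselves. Ahsg, the liver protein fetuin-A, stood at -7.96, -8.35, -8.06 and -6.88 in treated mice, against 0.03, -2.82, -4.82 and -4.32 in saline mice, with 1 of 4 treated arrays well above background (-4.83 ± 0.84). Ahsg entered the tests through groups other than the treated one, so that the filter favoured this fall, which normexp did not call. Saline replicate 1 was the highest by a wide margin. The same animal led for Alb, albumin, at 0.45, against -2.53 to -2.1 in the other saline mice and -3.37 to -2.68 in treated mice. Of the 9 liver markers 6 fell and 1, Fgb, rose, and the within-day medians of the list were -2.08 on the day that holds saline replicate 1 and -0.73 on the other day.

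Set against the miR-155-/- mice at the same time, which share no array with the wild type mice, 99.4% of the 9178 genes called in wild type kidney had the same sign and 87.2% were called in the same direction. Of the 11661 genes called in miR-155-/- kidney (49.1%) 68.6% were called in the same direction in wild type kidney. Of 23737 genes 0 differed in response between the genotypes with limma (784 at an unadjusted p under 0.05, or 3.3%, and 0 to 2 under the other settings). Per2 rose by 1.15 in wild type and differed by -0.4 in miR-155-/- mice, and Wee1 rose by 1.82 and 0.65. The differences between the responses had adjusted p = 0.422 and 0.497.

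From 24 to 48 h in wild type mice 1396 genes were higher at 48 h (5.88%) and 1714 lower (7.22%). This comparison uses the same 4 arrays at 24 h as the one with saline, with opposite sign, so that genes high at 24 h tend to read lower from 24 to 48 h, and its counts are not independent of those above. Proteasome subunits were lower at 48 h in 16 of 30 cases and higher in 0, and nucleolar factors were lower in 11 of 22 and higher in 0. ER chaperones were higher at 48 h in 11 of 19 cases and lower in 0, with Manf, a secreted ER protein, higher by 0.99 at 48 h. Pck1 was higher by 2.46 at 48 h, and Atg7 by 1.37. NF-kB genes had 1 call, lower, in 17. Genes of 100 to 300 kb were higher at 48 h in 25.4% of cases and genes over 300 kb in 29.2%, with Sntg2, a syntrophin, higher by 3.66. Lrat, which esterifies retinol, was higher by 3.47. At 24 h 3 of 4 arrays were well above background for Sntg2 and 2 of 4 for Lrat, so that both entered the tests through other groups. Inmt, an indole methyltransferase, differed by -2.45, and Immp2l, a mitochondrial protease with a gene of 932 kb, by -3.12, both called lower at 48 h.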

How the data were processed

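RNA of whole kidney was labelled with 1 dye and hybridised to Agilent mouse arrays, 1 animal per array. Per the file headers, the authors deposited Feature Extraction 10.7.3.1 output (protocol GE1_107_Sep09), in which processed signals are background-subtracted intensity values. The value table deposited by the authors is an intensity scaled to a 75th percentile near 1000 on each array. From the deposited intensity, log2 of the processed signal minus the array's 75th percentile was computed here. Control and outlier spots were left out and spots of a probe averaged. Of 39429 probes 27234 carried 1 gene symbol (69.1%), updated through RefSeq. Tests kept genes that 1 or more groups measured well above background on each of their 4 arrays. All 32 arrays entered 1 limma fit (version 3.58.1 in R 4.3.3, mean-variance trend, 24 residual degrees of freedom), with Benjamini-Hochberg adjustment over 23737 genes at 0.05. The number of arrays limits the precision. Each p-value sets a difference against a spread between animals that was estimated within groups over all 32 arrays and drawn towards that of other genes.

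The genes named are the called members of each list with the largest differences (up to 5, and up to 2 of the opposite direction), the 15 largest rises and falls without overlap, the 10 largest differences from 24 to 48 h, and uncalled members whose role defines a list. Abcb1a, Aqp1, Calr, Cxcl16, G6pdx, Hnf4a, Hspa5, Inmt, Map3k14, Per2, Ppp1r15a, Rela, Relb, Slc22a2, Slc31a1, Slc47a1 and Sox4 lie outside this rule and were chosen after their values were seen. Some genes are not reported here. Lists and members were chosen with earlier results of these data known. "At least" folds are set against the dimmest signal well above background. Alternatives covered background correction, normalization, probe filters, slide, scan day, array weights, a replicate block and leaving out each array. Same-numbered animals did not deviate together (correlations -0.21, -0.3, 0.08 and 0.02), so that replicate numbers only name animals.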

Additional observations from a re-analysis of the deposited data

Results flagged for a closer look

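Among the genes named, an array stood apart from the other 3 of its group by Dixon's ratio (gap over range, critical value 0.829) in 19 of 400 checks, where chance alone gives about 1 in 20. In the treated mice, replicate 3 stood apart for Calr (0.843), Ccnt2 (0.838), Cldn6 (0.898), Havcr1 (0.906) and Hspb1 (0.875). Replicate 1 did so for Hsp90b1 (0.915) and Nphs1 (0.901) and replicate 4 for Ajuba (0.942). In the saline mice, replicate 2 stood apart for Atp7b (0.89), Ccnt2 (0.894), Clcf1 (0.89), Rev1 (0.92) and Slc13a3 (0.863), and replicate 1 for Alb (0.855), Cxcl12 (0.898), Gatm (0.887) and Pax2 (0.862). Saline replicate 3 did so for Sars (0.906) and saline replicate 4 for Polk (0.865).

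The change from saline differed between 48 and 24 h in 3110 genes by limma. Of the genes named, Sntg2 (3.66), Lrat (3.47) and Immp2l (-3.12) had the widest log2 differences between these times.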

How the results depend on the processing

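The normexp background correction lowered the counts and array weights raised most of them. Normexp called 5223 genes, 2931 higher and 2292 lower, at 24 h against saline, 1514 genes from 24 to 48 h and 7131 genes in miR-155-/- mice at 24 h, and it moved the median of all genes to 0.26 from 0.07. It took the calls of 20 named genes, among them Ahsg, Brca1, Cry1, Krt12, Pappa2 and Sox9. Array weights called 13533 genes at 24 h, 7725 of them higher, and 7075 genes from 24 to 48 h. The difference between the genotypes gave 2 genes with quantile normalization and 2 with slide as a random block. The cause was not tested for any of these. Leaving out 1 array at a time gave 7470 to 8968 genes called, 4063 to 4944 higher and 3407 to 4024 lower, 1762 to 3090 genes from 24 to 48 h, 10112 to 11985 genes in miR-155-/- mice, 0 to 1 gene for the difference between the genotypes and a length slope of -0.53 to -0.473. From 24 to 48 h, 1762 genes were called without treated replicate 2 and 2029 without treated replicate 4. With the replicate number as a block 4986 genes were higher and 4182 lower, and 2 of 200 named genes changed their call. None of the 200 named genes changed direction while called under the alternatives run. List medians changed sign under normexp in 9 of 69 lists, within slide 6 in 7, within the 2 scan days in 8 and 6, and in members under 30 kb in 6. The scan day block, the within-day values, the lists of members under 30 kb and the slopes beyond wild type 24 h were chosen after seeing the data.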
